A study of Rattus norvegicus with 9 samples.

Results

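The genes of the GABA and glycine synapse were described in the lesioned thoracic spinal cord of the rat, 35 days after a contusion. The list names 28 genes by symbol: subunits of the GABAA, GABAB and glycine receptors, the enzymes and transporters that make, load, clear and break down the transmitters, the postsynaptic scaffold proteins gephyrin and neuroligin 2, and the calcium-binding protein parvalbumin. Of these, 27 were found among the 30507 rows of the deposited count table, and no row carried the symbol Nlgn2, so that gene was not analysed here. The rows were found by symbol, and the list was chosen with earlier results of these data known.

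Bulk RNA-seq of 9 libraries was analysed, 3 from each of 3 groups of female, wild-type Sprague-Dawley rats that were 8 weeks old when obtained. The Sham group had the bone over the cord opened at T10 without an injury, per the study's methods, while its labels say no treatment. The SCI group had a contusion of 150 kdyn at T10. The SCI + SCS group had the same contusion and, through an electrode placed on the dura, received 10 kHz spinal cord stimulation at 0.12 mA with 30 µs pulses for 2 h a day from 1 day post-injury (dpi). Tissue of segments T9-T11 was taken at 35 dpi in every group. Injured rats with an implanted but silent electrode were part of the study and not of these libraries, so effects of the implant and of the current cannot be told apart here. All libraries carry the same batch label.

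GABA and glycine are the fast inhibitory transmitters of the spinal cord. Interneurons make GABA from glutamate, load GABA or glycine into vesicles with a shared transporter, and release them onto receptors that are pentameric chloride channels, held at the synapse by gephyrin; GABAB receptors act more slowly, through G proteins. Neurons and astrocytes then take the transmitters up again. In the dorsal horn this inhibition is known for holding back pain signals, and in the ventral horn for shaping motor output.

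The libraries held 62844376 to 88358570 counts, so that 3 counts, the floor used for a gene at 0, were worth 0.0341 to 0.0472 CPM, the counts scaled to a common library size. CPM values below were scaled by the trimmed mean of M values (TMM) over the 9 libraries, and levels of different genes are compared only as FPKM, in which counts are divided by transcript length and sequencing depth. The tissue carried the transcripts of spinal cord: Mbp of myelin ranged from 11229 to 51064 CPM and Snap25 of nerve terminals from 183 to 2220 CPM over the 9 libraries. Transcripts of skeletal muscle were abundant in SCI replicate 1 (0.418% of counts) and SCI replicate 3 (0.154%), against 0.0173% to 0.0279% in the other libraries. The summed level of 18 pan-neuronal transcripts was 1495 to 4003 CPM in the SCI group against 7448 to 15540 CPM in the Sham group. In whole tissue, fewer neurons and less RNA per neuron cannot be told apart.

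Per length, the most abundant of the 27 genes in the Sham group was Slc6a9, which encodes the glycine transporter GlyT1 of astrocytes, at 112 FPKM ± 2.02 (SD, n = 3). It was followed by the GABAB receptor subunit gene Gabbr1 (85.7 ± 12.1 FPKM) and by Glrb (51.8 ± 14.3 FPKM), the glycine receptor subunit that binds gephyrin. Slc6a9 and Gabbr1 also held the top 2 places in both injured groups. At the other end of the order lay the receptor subunit genes Gabrb2 (0.203 ± 0.0733 FPKM), Glra3 (0.181 ± 0.119 FPKM) and Gabrq (0.128 ± 0.0716 FPKM), whose Sham ranges overlapped, so these last places in the order cannot be separated.

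**Figure D1:**
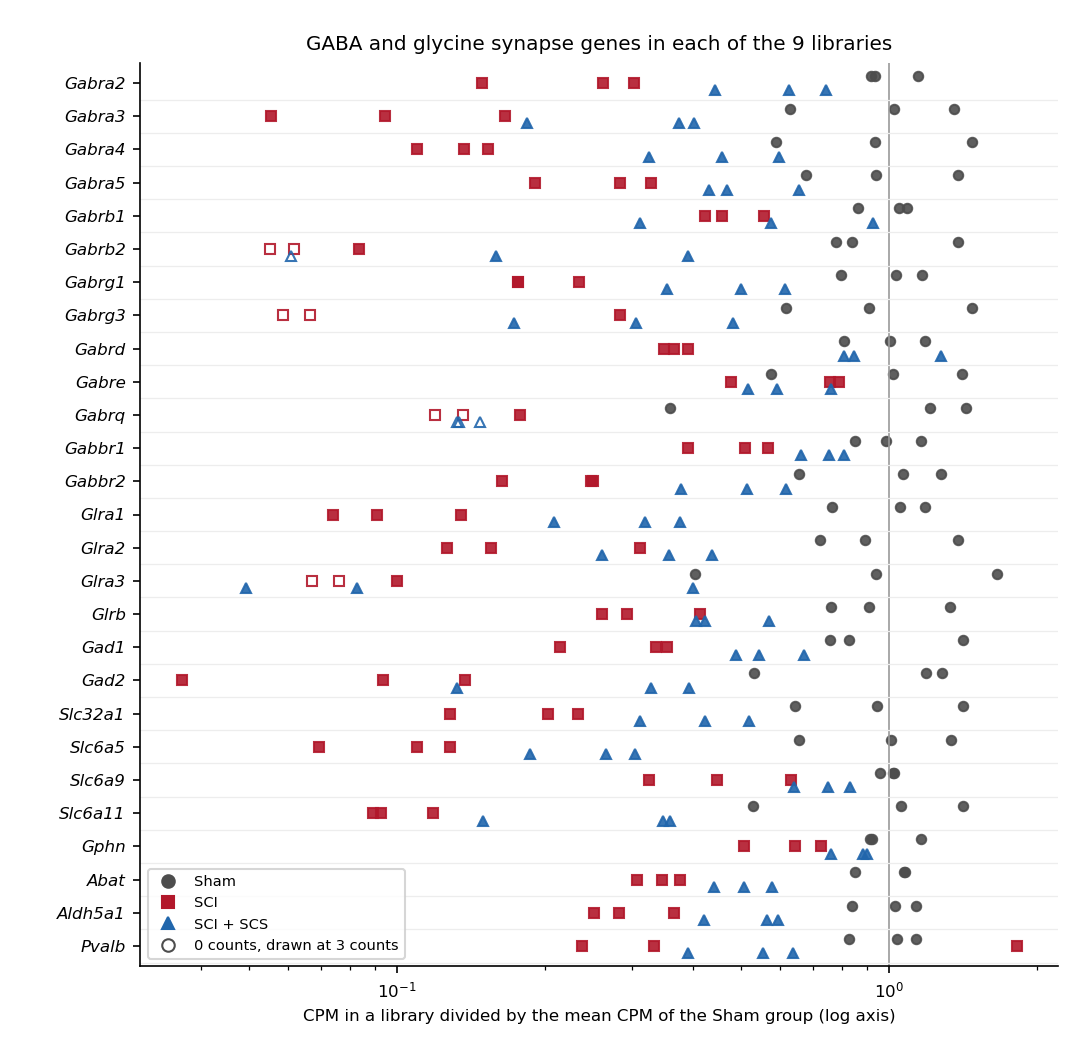
CPM of each of the 27 genes in each of the 9 libraries, divided by that gene's mean over the 3 Sham libraries (log axis); grey circles are Sham, red squares SCI and blue triangles SCI + SCS, and open symbols mark libraries with 0 counts, drawn at 3 counts. For nearly every gene the SCI libraries lie to the left of all Sham libraries and the SCI + SCS means lie between the other means in 24 of 27; Pvalb in SCI replicate 1 is the exception at the far right.

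Inhibitory synapse genes were lower almost throughout in SCI than in Sham. Of the 26 genes with enough counts to be tested, 22 fell by more than 2-fold with an adjusted p under 0.05 (edgeR quasi-likelihood test, Benjamini-Hochberg adjustment over all rows; a gene past both thresholds is referred to here as called), and none rose. Over the whole table, 13.6% of the 17822 rows tested were called lower in this comparison. Without the fold threshold 23 genes had an adjusted p under 0.05, all lower, against 25% of all rows. In 24 of the 26 genes every SCI library lay below every Sham library, which was the case for 31% of all rows. The median difference of the 26 genes was -2.14 on the log2 scale, with a range from -5.12 to -0.35, beside a median of 0.02 over all rows tested. Gabrb2 and Glra3 (0 to 4 counts in each SCI library) and Gabrg3 (0, 13 and 0 counts) passed the count filter through the Sham libraries, so a difference was built into their being tested.

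The enzymes that make GABA moved by unequal amounts. Gad1 encodes the 67-kDa glutamate decarboxylase, which makes most GABA in the cell body, and Gad2 the 65-kDa form found at terminals. Gad1 stood at 120, 70.1 and 64.2 CPM in the 3 Sham libraries, at 29.999, 28.5 and 18.1 CPM in the SCI libraries and at 41.3, 46.0 and 57.0 CPM in the SCI + SCS libraries. Gad2 stood at 5.58, 5.16 and 2.31 CPM in Sham, at 0.406, 0.596 and 0.159 CPM in SCI and at 0.575, 1.70 and 1.43 CPM in SCI + SCS. For Gad1 the 3 groups did not overlap, and for Gad2 the lowest SCI + SCS library lay within the SCI range. Gad1 was 3.36-fold lower in SCI than in Sham (log2 fold change -1.75, SE 0.31, adjusted p = 0.00494 by edgeR) and Gad2 was 11.3-fold lower (-3.50, SE 0.58, adjusted p = 0.00411 by edgeR). Slc32a1, the vesicular transporter that loads GABA and glycine, measured 123, 82.1 and 56.0 CPM in Sham and 20.3, 17.6 and 11.1 CPM in SCI. It fell by 2.43 on the log2 scale (SE 0.35, adjusted p = 0.00287 by edgeR), and its SCI + SCS libraries held 27.0, 36.7 and 45.1 CPM, between the other groups without overlap.

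The 3 transporter genes that clear the transmitters were all called lower, by unequal amounts. Slc6a5 encodes GlyT2, the glycine transporter of the terminals of glycinergic neurons, and is commonly used to mark them. Its level was 153, 116 and 75.2 CPM in Sham, 14.7, 12.5 and 7.93 CPM in SCI and 21.3, 30.4 and 34.8 CPM in SCI + SCS, again with no overlap of the groups. The SCI level was 9.89-fold below Sham (log2 fold change -3.31, SE 0.35, adjusted p = 0.00143 by edgeR). Slc6a11, the GABA transporter GAT-3 of astrocytes, fell as far, by 3.34 on the log2 scale (SE 0.38, adjusted p = 0.00169 by edgeR), from 58.6, 43.8 and 21.9 CPM in Sham to 3.69, 4.90 and 3.84 CPM in SCI. The astrocytic Slc6a9 fell by 1.11 (SE 0.24, adjusted p = 0.00943 by edgeR), from 440, 412 and 437 CPM to 272, 192 and 140 CPM. Beside these astrocytic transporters, 3 of the 12 astrocyte marker genes were called lower in SCI and none higher, against 13.6% and 13.4% of all rows. The marker genes had a median of -0.55, and their summed level overlapped between SCI (9304 to 14150 CPM) and Sham (9156 to 13410 CPM). The part of astrocyte number in the values of Slc6a11 and Slc6a9 was not tested.

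Gad1, Gad2, Slc32a1 and Slc6a5 define the cells that make and release GABA and glycine, so the 250 bases before the start of each are shown here, in the gene's own direction, from RefSeq on the GRCr8 build (the count table itself uses mRatBN7.2). Capitals mark TATAAA (the TATA box), GGGCGG (the GC box, to which Sp1 binds) and TGACG (the core of the cyclic AMP response element), each searched on both strands, so that CCGCCC is a GC box on the other strand.
Gad1, chr3:75777202-75777451, plus strand: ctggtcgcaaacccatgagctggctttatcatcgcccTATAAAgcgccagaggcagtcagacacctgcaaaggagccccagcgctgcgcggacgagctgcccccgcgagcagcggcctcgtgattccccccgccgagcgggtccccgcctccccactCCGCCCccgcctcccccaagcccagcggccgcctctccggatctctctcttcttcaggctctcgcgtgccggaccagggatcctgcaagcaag
Gad2, chr17:89671468-89671717, plus strand: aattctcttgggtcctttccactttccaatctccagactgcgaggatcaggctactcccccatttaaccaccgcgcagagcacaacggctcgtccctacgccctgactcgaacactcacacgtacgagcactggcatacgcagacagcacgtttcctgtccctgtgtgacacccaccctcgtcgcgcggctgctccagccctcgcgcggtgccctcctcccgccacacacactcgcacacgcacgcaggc
Slc32a1, chr3:167686995-167687244, plus strand: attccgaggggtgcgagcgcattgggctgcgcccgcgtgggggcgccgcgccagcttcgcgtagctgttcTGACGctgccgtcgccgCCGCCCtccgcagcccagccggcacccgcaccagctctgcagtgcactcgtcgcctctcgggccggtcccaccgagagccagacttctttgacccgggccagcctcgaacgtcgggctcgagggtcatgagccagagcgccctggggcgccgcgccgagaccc
Slc6a5, chr1:108781303-108781552, plus strand: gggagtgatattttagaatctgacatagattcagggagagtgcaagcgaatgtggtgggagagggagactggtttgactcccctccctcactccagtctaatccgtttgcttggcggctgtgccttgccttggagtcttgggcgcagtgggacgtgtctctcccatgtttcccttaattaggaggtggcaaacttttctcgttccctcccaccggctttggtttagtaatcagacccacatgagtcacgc

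In these windows Gad1 held a TATAAA and a GC box, and Slc32a1 a GC box and a TGACG. The TATAAA of Gad1 lay in the part of its window farthest from the start. Gad2 and Slc6a5 held none of the searched letters. The windows also differed in composition: that of Slc6a5 had 52.4% G and C and 8 CG pairs, and that of Slc32a1 73.6% and 34 pairs. Windows were given for 24 of the 27 genes (not for Gabra2, Glra1 and Abat). A GC box was present in 17 of the 24 and in 32.4% of all 27457 windows, TATAAA in 3 of the 24 and in 13.1% of all, and TGACG in 3 of the 24 and in 19% of all. The full response element TGACGTCA, which contains TGACG, was in none of the 24 and in 1.7% of all windows. The median share of G and C was 65.4% in the 24 windows and 52% in all. These matches describe letters only, and neither binding nor activity was measured.

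Among the GABAA receptor genes, whose subunits assemble in fives around the chloride pore, 8 of the 10 tested were called lower in SCI. Of all rows tested, 13.6% were called lower. Gabra5, an alpha subunit found largely outside synapses, was the most abundant of those listed per length (10.5 ± 3.55 FPKM in Sham) and fell from 47.4, 32.3 and 23.2 CPM to 11.2, 9.72 and 6.55 CPM (log2 fold change -1.92, SE 0.32, adjusted p = 0.00413 by edgeR). It lies at chr1:108268776-108380917 on the minus strand (mRatBN7.2). The strand setting of the counting is not given, and without strand, reads of transcripts from the opposite strand cannot be told apart from its own. Gabra2 and Gabra3, the alpha subunits commonly tied to dorsal horn inhibition, fell by 2.09 (SE 0.29, adjusted p = 0.00255) and by 3.27 (SE 0.49, adjusted p = 0.00311 by edgeR). Gabra3 had 10.5, 7.96 and 4.90 CPM in Sham, 0.431, 1.29 and 0.737 CPM in SCI and 1.43, 3.13 and 2.91 CPM in SCI + SCS. No Gabra3 value was shared between the ranges of any groups.

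Position on the chromosome did not go with a common size of change. Gabrb1, Gabra4, Gabra2 and Gabrg1 follow each other on chromosome 14 between 36080393 and 37635956 (mRatBN7.2), with gaps of 41.8 to 431 kb. Their log2 fold changes in SCI against Sham were -1.08 for Gabrb1, -2.91 for Gabra4, -2.09 for Gabra2 and -2.37 for Gabrg1, all called, with Gabrb1 the smallest. Gabrb1 missed the adjusted threshold without Sham replicate 2 (-1.02, adjusted p = 0.059 by edgeR) and without SCI replicate 3 (-1.05, adjusted p = 0.0503). On the X chromosome Gabre, Gabra3 and Gabrq lie within 150060040 to 150708911, and here Gabra3 fell while Gabre, the epsilon subunit, overlapped between the groups at 1.79, 1.29 and 0.732 CPM in Sham and 0.964, 1.01 and 0.607 CPM in SCI (log2 fold change -0.58, SE 0.42, adjusted p = 0.281 by edgeR). Gabrq, the theta subunit, had 29, 34 and 10 counts in the Sham libraries, 0, 4 and 0 in SCI and 0 in every SCI + SCS library, too few to be tested. With a floor of 3 counts per library, the mean floor of the SCI + SCS libraries (0.0439 CPM) lay 7.27-fold below the Sham mean of Gabrq (0.319 CPM). The Sham libraries ranged from 0.114 to 0.456 CPM, a spread that this ratio of means leaves out.

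Some sparse subunits had a large SE, Gabrg3 and Gabrb2 (SE 1.01) among them. Gabrg3, a gamma subunit, had 61, 52 and 35 counts in Sham and 0, 13 and 0 in SCI, a difference that did not pass the test (log2 fold change -3.40, SE 1.24, adjusted p = 0.0594 by edgeR), though DESeq2 and the fit without SCI replicate 2 put it past (adjusted p = 0.0358 and 0.0107). Gabrb2, a beta subunit, had 37, 84 and 47 counts in Sham and 0, 0 and 4 in SCI. Gabrd, the delta subunit of receptors outside the synapse, had 47, 95 and 80 counts in Sham and 25, 25 and 23 in SCI and was called lower (log2 fold change -1.46, SE 0.31, adjusted p = 0.01 by edgeR). Its SCI + SCS libraries held 55, 52 and 74 counts.

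GABAB receptors need both of their subunits, and these did not fall equally. Gabbr1 stood at 537, 458 and 396 CPM in Sham and at 263, 237 and 181 CPM in SCI, a 2.07-fold decrease (log2 fold change -1.05, SE 0.19, adjusted p = 0.00505 by edgeR). Gabbr2, which carries the G protein coupling, stood at 85.0, 71.2 and 43.7 CPM in Sham and at 16.7, 16.5 and 10.9 CPM in SCI, a 4.59-fold decrease (-2.20, SE 0.29, adjusted p = 0.00231 by edgeR). In neither gene did the groups overlap.

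All 4 glycine receptor genes were called lower in SCI, beside 13.6% of all rows. Glra1, the adult alpha subunit, showed 5.74, 6.47 and 4.19 CPM in Sham, 0.736, 0.497 and 0.405 CPM in SCI and 1.14, 1.74 and 2.05 CPM in SCI + SCS. The fall from Sham to SCI was 10.1-fold (log2 fold change -3.34, SE 0.33, adjusted p = 0.00135 by edgeR). Glrb, the beta subunit with which the alpha subunits assemble, stood at 262, 179 and 150 CPM in Sham and at 80.9, 57.5 and 51.3 CPM in SCI (-1.66, SE 0.27, adjusted p = 0.00376 by edgeR). Glra2, the alpha subunit that prevails before birth, fell by 2.36 (SE 0.43, adjusted p = 0.00577), and Glra3, an alpha subunit of the superficial dorsal horn, by 4.84 (SE 1.14, adjusted p = 0.0137 by edgeR), the latter from 34, 83 and 20 counts to 0, 4 and 0.

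The scaffold gene and the genes of the breakdown enzymes were lower in SCI as well. Gphn, gephyrin, changed least among the genes that passed the test, from 75.2, 59.8 and 59.2 CPM in Sham to 46.9, 41.6 and 32.8 CPM in SCI, a 1.62-fold fall under the fold threshold (log2 fold change -0.70, SE 0.17, adjusted p = 0.0153 by edgeR). Gephyrin also makes the molybdenum cofactor, and its transcript is not limited to neurons. Abat and Aldh5a1, the mitochondrial enzymes that take GABA to succinate, fell by 1.56 (SE 0.14, adjusted p = 0.00118) and by 1.76 (SE 0.18, adjusted p = 0.00143 by edgeR). Abat ranged from 44.2 to 56.0 CPM in Sham and from 15.95 to 19.5 CPM in SCI.

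Pvalb did not follow the other genes. It encodes parvalbumin, a calcium buffer of some inhibitory interneurons and of sensory neurons, and also of fast skeletal muscle. Its level was 59.0, 64.3 and 47.1 CPM in Sham, 103, 13.5 and 18.9 CPM in SCI and 22.1, 36.3 and 31.4 CPM in SCI + SCS. SCI replicate 1 lay above every other library and the other 2 SCI libraries below them all, so the difference from Sham did not pass (log2 fold change -0.35, SE 0.74, adjusted p = 0.714 by edgeR). The summed level of 13 muscle transcripts was 4526 CPM in SCI replicate 1, 1480 CPM in SCI replicate 3, 166 CPM in SCI replicate 2 and 186 to 276 CPM in the Sham and SCI + SCS libraries. Without SCI replicate 1 the Pvalb difference was -1.83 with an adjusted p of 0.0062 (edgeR), while without SCI replicate 2 it was 0.08. The part of muscle RNA in the Pvalb values was not tested.

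**Figure D2:**
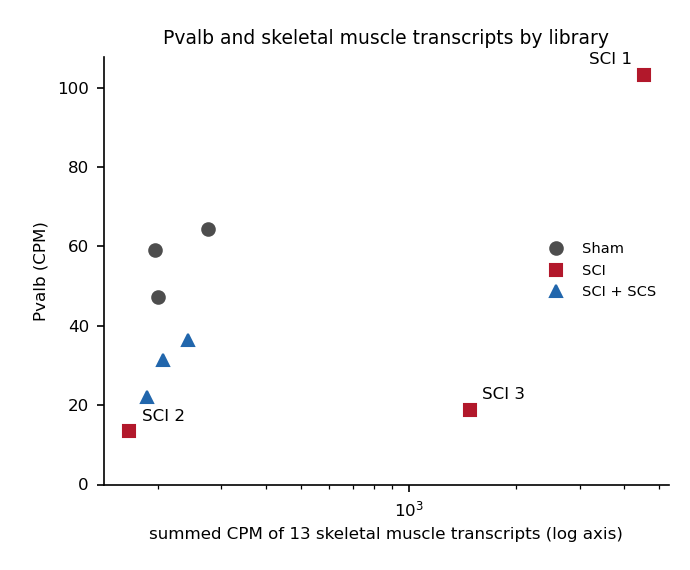
Pvalb in CPM (linear axis from 0) against the summed CPM of 13 skeletal muscle transcripts (log axis), 1 point for each of the 9 libraries, Sham as grey circles, SCI as red squares and SCI + SCS as blue triangles. SCI replicate 1 is highest on both axes (103 CPM of Pvalb, 4526 CPM of muscle transcripts), while SCI replicate 3, next on the muscle axis, has 18.9 CPM of Pvalb.

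**Figure D3:**
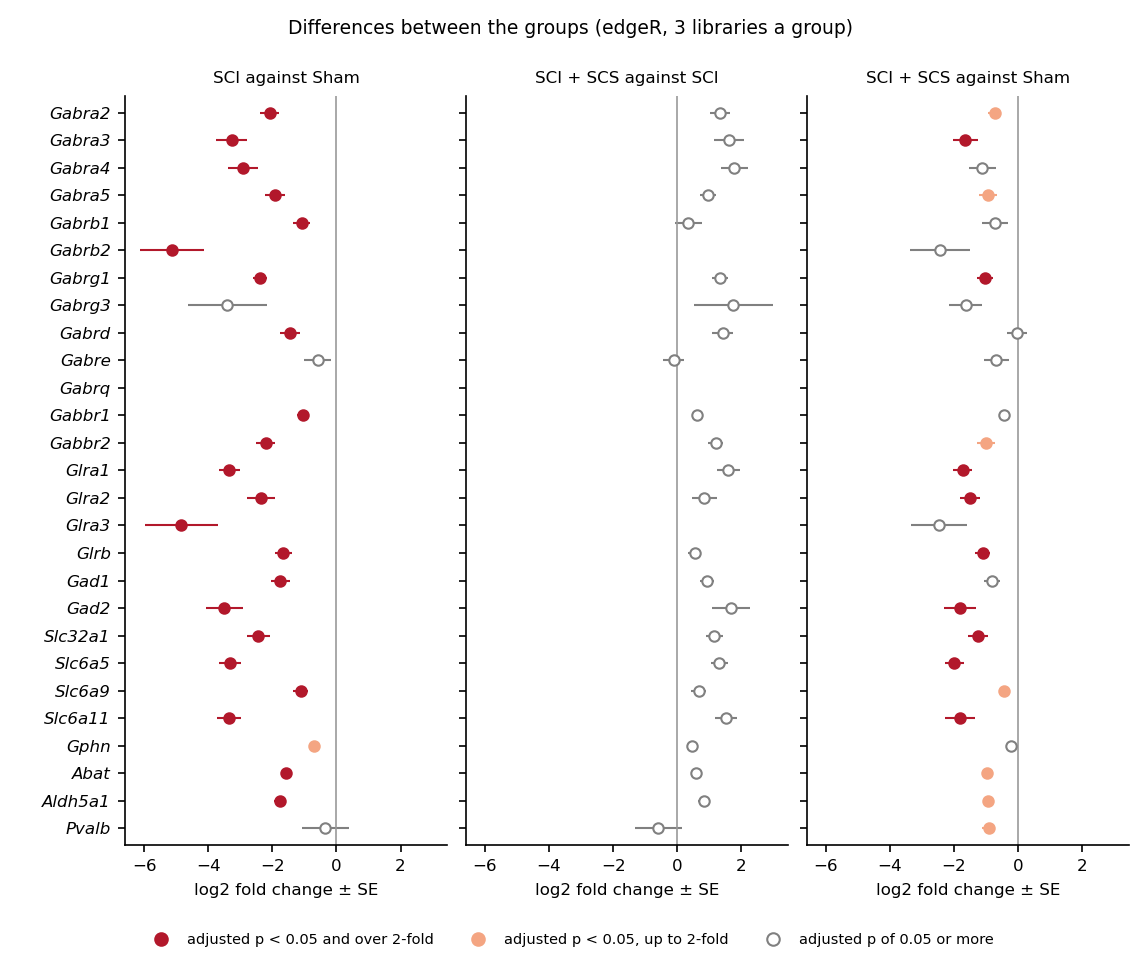
Log2 fold change of each gene ± SE in the 3 comparisons (edgeR, 3 libraries a group); dark red points passed both thresholds, light points only the adjusted p of 0.05 and open points neither, and genes with too few counts have no point. In SCI against Sham 22 points are dark red and all lie below 0, in SCI + SCS against SCI no point is filled and 22 of 24 lie above 0, and in SCI + SCS against Sham 9 are dark red, all below 0.

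Most of these genes stood higher in SCI + SCS than in SCI, and none passed the adjusted test by edgeR. Of 24 genes tested, 22 had a log2 fold change above 0, with a median of 1.06 and a range from -0.59 to 1.79, beside a median of -0.01 over all rows. By edgeR none was called, as against 0.00566% of the 17663 rows (1 row), and none reached an adjusted p under 0.05. Before adjustment, 19 of the 24 genes were higher with a p below 0.05 and none lower, against 13.3% of all rows that were higher. In 17 of the 24 genes every SCI + SCS library lay above every SCI library, against 15.7% of all rows. DESeq2, the tool the study names, called 10 of the genes higher (2.44% of all rows) and gave 16 of them an adjusted p under 0.05 (8.28% of all rows), so the outcome of the adjusted test turned on the tool.

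By role, the median log2 fold change lay between 0.45 for Gphn alone and 1.35 for the GABAA receptor subunits, apart from Pvalb. Slc6a5 was 2.47-fold higher in SCI + SCS than in SCI (log2 fold change 1.31, SE 0.27, adjusted p = 0.08 by edgeR, 0.000137 by DESeq2). Slc32a1 was 2.24-fold higher (1.16, SE 0.26, adjusted p = 0.0872 by edgeR) and Gad1 1.89-fold higher (0.92, SE 0.21, adjusted p = 0.0876 by edgeR). These genes mark the cells that make and release the transmitters, and their SCI and SCI + SCS libraries did not overlap. Among receptors, Gabra4 had the highest estimate (1.79, SE 0.41), from 14, 9 and 11 counts in SCI to 27, 49 and 34 in SCI + SCS. Its SCI counts lay near the count filter, which its SCI + SCS libraries passed, so part of this difference may be built into its being tested. Gabrg1, a gamma subunit, went from 2.46, 3.26 and 2.46 CPM to 4.94, 8.59 and 6.97 CPM (1.33, SE 0.25), a difference whose adjusted p was 0.0774 by edgeR. SCI + SCS replicate 1 held the lowest value of its group in 23 of the 27 genes, and without it Gabrg1 and Slc6a11 passed (log2 fold changes of 1.52 and 1.82, each with an adjusted p of 0.0499 by edgeR).

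The GABAB receptor genes and the astrocytic transporter genes did not overlap between the injured groups. Gabbr1 went from 263, 237 and 181 CPM in SCI to 307, 375 and 350 CPM in SCI + SCS (0.61, SE 0.15, adjusted p = 0.0959 by edgeR), and Gabbr2 from 16.7, 16.5 and 10.9 to 25.1, 34.3 and 41.1 CPM (1.197, SE 0.23, adjusted p = 0.0774 by edgeR). Slc6a9 went from 272, 192 and 140 to 275, 358 and 323 CPM (0.67, SE 0.24, adjusted p = 0.152 by edgeR), so that its lowest SCI + SCS library lay just above its highest SCI library. The other astrocytic transporter gene, Slc6a11, went from 3.69, 4.90 and 3.84 to 6.20, 14.8 and 14.3 CPM (1.52, SE 0.34, adjusted p = 0.0866 by edgeR). Of the astrocyte marker genes, 7 of 12 were higher at an unadjusted p under 0.05 and 1 lower, with a median of 0.51, beside 13.3% and 10.9% of all rows.

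The dorsal horn alpha subunit genes and the breakdown enzymes also stood apart between the injured groups. Gabra2 had 3.34, 3.86 and 1.89 CPM in SCI and 5.63, 9.44 and 7.94 CPM in SCI + SCS (1.35, SE 0.31, adjusted p = 0.0885 by edgeR), and Gabra3 was 3.06-fold higher (1.61, SE 0.48, adjusted p = 0.117 by edgeR). Abat had 15.95, 17.95 and 19.5 CPM in SCI and 22.9, 29.99 and 26.3 CPM in SCI + SCS (0.58, SE 0.13, adjusted p = 0.0876 by edgeR). Aldh5a1 had 31.1, 24.0 and 21.4 CPM in SCI and 35.8, 48.1 and 50.6 CPM in SCI + SCS (0.82, SE 0.18, adjusted p = 0.0854 by edgeR). In these 4 genes no SCI + SCS library reached down to an SCI library, and none reached up to a Sham library.

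In the other 7 genes tested, the injured groups shared part of their ranges. Gabre (-0.11, SE 0.33) and Pvalb (-0.59, SE 0.73) were below 0, and Gabrb1 (0.35, SE 0.42), Glrb (0.54, SE 0.21), Glra2 (0.84, SE 0.39), Gad2 (1.68, SE 0.59, adjusted p = 0.15 by edgeR) and Gabrg3 (1.75, SE 1.24, from 0, 13 and 0 counts to 8, 14 and 20) above it. Pvalb turned to 0.88 without SCI replicate 1. Gabrb2 (0, 0 and 4 counts in SCI, 0, 19 and 7 in SCI + SCS), Glra3 (0, 4 and 0, then 2, 16 and 3) and Gabrq were too sparse to be tested.

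Part of the genes were lower in SCI + SCS than in Sham. All 26 genes tested had a log2 fold change below 0 (median -1.01, range -2.47 to -0.04, beside 0.01 over all rows), 9 were called lower and none higher, against 5.44% of all 17640 rows called lower. Without the fold threshold 16 had an adjusted p under 0.05, against 16.2% of all rows, and in 22 every SCI + SCS library lay below every Sham library, against 26% of all rows. The 9 were Gabra3, Gabrg1, Glra1, Glra2, Glrb, Gad2, Slc32a1, Slc6a5 and Slc6a11. Glra3 (2, 16 and 3 counts in SCI + SCS), the lower end of the range, and Gabrb2 (0, 19 and 7) passed the count filter through the Sham libraries. A difference was thus built into the testing of Glra3 and Gabrb2. Every comparison with SCI + SCS or Sham shares libraries with another, so the 3 sets of values are given side by side and not as independent evidence of each other.

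The number of calls in this comparison depended on single libraries. It was 4 without Sham replicate 1, 3 without Sham replicate 2, 18 without Sham replicate 3 and 2 without SCI + SCS replicate 1. The number with an adjusted p under 0.05, 16 with all libraries, was 9 without Sham replicate 1, 5 without Sham replicate 2, 5 without SCI + SCS replicate 1, 10 without SCI + SCS replicate 2 and 8 without SCI + SCS replicate 3. Sham replicate 1 had the highest levels of Gad1, Slc32a1 and Slc6a5 and Sham replicate 3 the lowest. The same order held for the summed level of the 27 genes, which was 2178, 1795 and 1533 CPM in Sham, 920, 687 and 532 CPM in SCI and 946, 1199 and 1194 CPM in SCI + SCS.

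Of the 4 glycine receptor genes 3 were called lower in SCI + SCS than in Sham, beside 5.44% of all rows. The 4 had a median of -1.62. That median includes Glra3, which passed the count filter through the Sham libraries, so a difference was built into its being tested. Slc6a5 was 3.96-fold lower (log2 fold change -1.99, SE 0.30, adjusted p = 0.00713 by edgeR) and Glra1 3.32-fold lower (-1.73, SE 0.29, adjusted p = 0.00912 by edgeR). At the other extreme, Gabrd at 0.772, 0.737 and 1.16 CPM lay within reach of the Sham values of 0.739, 1.08 and 0.915 CPM (-0.04, SE 0.30, adjusted p = 0.935 by edgeR). Gphn at 49.2, 58.4 and 57.4 CPM lay just below the Sham values of 75.2, 59.8 and 59.2 CPM without passing the test (-0.23, SE 0.13, adjusted p = 0.191 by edgeR). An adjusted p above the threshold does not show that these levels were equal. As a share of the Sham mean, the 27 genes had a median of 22.1% in SCI (2.79% to 79.5%) and of 48.9% in SCI + SCS (0% to 97.6%), and in 24 of the 27 the SCI + SCS mean lay between the other means, Gabre, Gabrq and Pvalb being the exceptions.

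Partner genes were set against each other within each library, as ratios of FPKM values, for 6 pairs chosen after the values were seen. Slc6a5 to Slc32a1, the glycine-specific against the shared transporter of inhibitory terminals, was 0.421, 0.476 and 0.454 in Sham, 0.245, 0.241 and 0.242 in SCI and 0.266, 0.280 and 0.261 in SCI + SCS. The 3 groups did not overlap, and the ratio in both injured groups stood closer to each other than to Sham. Gad2 to Gad1 went from 0.0845 ± 0.0314 (SD, n = 3) in Sham to 0.0225 ± 0.0104 in SCI and 0.0409 ± 0.0186 in SCI + SCS. For this ratio the SCI + SCS libraries overlapped both SCI and Sham. Glra1 to Glrb went from 0.0410 ± 0.0102 to 0.0120 ± 0.000898 and 0.0253 ± 0.00485, with no overlap of any groups.

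For Gabbr2 to Gabbr1 the means were 0.112 ± 0.0212, 0.0512 ± 0.00365 and 0.0769 ± 0.0145, with Sham and SCI + SCS overlapping. Slc6a5 to Slc6a9, the neuronal against the astrocytic glycine transporter, fell from 0.116 ± 0.0385 to 0.0256 ± 0.00269 and stood at 0.0392 ± 0.00687 in SCI + SCS. Glra2 to Glra1, a comparison of the early with the adult alpha subunit, overlapped in every pair of groups (0.875 ± 0.248, 1.85 ± 1.05 and 1.03 ± 0.067). With 3 libraries a group the exact two-sided permutation test cannot give a p below 0.1, which was the value for 5 of the 6 ratios in SCI against Sham, and after adjustment over the 18 comparisons the smallest p was 0.15. The ratios are therefore a description of these libraries.

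**Figure D4:**
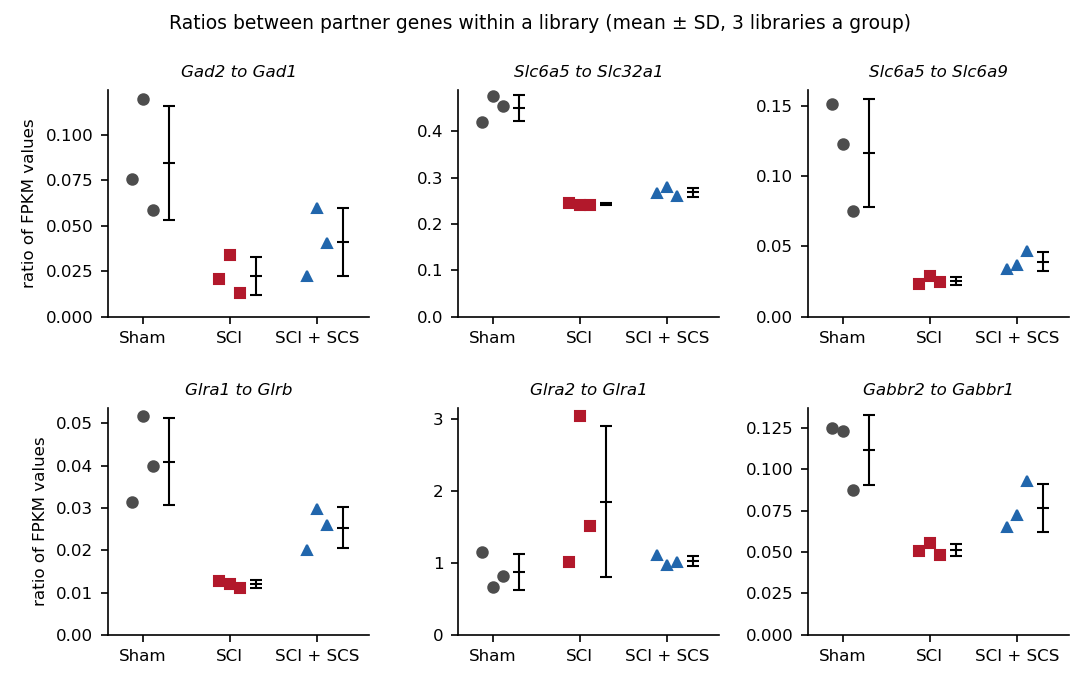
Ratios of the FPKM values of partner genes within each library for 6 pairs (linear axes from 0), with Sham as grey circles, SCI as red squares and SCI + SCS as blue triangles and the mean ± SD of the 3 libraries beside them. Slc6a5 to Slc32a1 lies between 0.421 and 0.476 in Sham and between 0.241 and 0.280 in the injured groups, and Glra2 to Glra1 is the only pair without a separation of SCI from Sham.

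Transcripts of neurons in general had a similar median. All 18 pan-neuronal genes were called lower in SCI against Sham, with a median log2 fold change of -2.13, beside -2.14 for the inhibitory synapse genes; in SCI + SCS against SCI the medians were 0.93 and 1.06, and in SCI + SCS against Sham -1.21 and -1.01. Excitatory interneuron genes (8 of 11 called lower in SCI, median -1.52) and motor neuron genes (6 of 7, median -2.34) were also lower. Over all rows tested, 13.6% were called lower in SCI. Slc17a6, the vesicular glutamate transporter of excitatory neurons, fell by 2.25 (SE 0.27, adjusted p = 0.00191 by edgeR). Over the same libraries 10 of 13 microglia and macrophage genes and 7 of 8 fibroblast genes were called higher, beside 13.4% of all rows. The part of cell composition in the values of the inhibitory synapse genes was not tested.

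When the summed counts of the 18 pan-neuronal genes replaced the library size, the inhibitory synapse genes had a median near 0. This scaling raised the median of all rows to 2.21 in SCI against Sham, while the median of the 27 genes then tested, Gabrq among them, was -0.02, with 14 of 27 below 0 and 13 above it. Gabre (1.64), Gphn (1.45) and Pvalb (1.43) had an adjusted p under 0.05 and were higher (edgeR). Gabrb2 (-2.86) and Glra3 (-2.75), the 2 genes with an adjusted p under 0.05 that were lower, are those with next to no counts in SCI that were tested because of their Sham counts. Relative to pan-neuronal RNA, Slc6a5 (-1.14), Glra1 (-1.25), Gad2 (-1.36) and Slc6a11 (-0.99) lay below 0 and Gad1 (0.44), Glrb (0.53), Gabbr1 (1.11) and Slc6a9 (0.93) above it, none of these past the adjusted threshold. In SCI + SCS against SCI the median was 0.11 beside -1.03 for all rows, and in SCI + SCS against Sham 0.18 beside 1.16. The lower levels in SCI are thus levels relative to all RNA in the tissue.

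**Figure D5:**
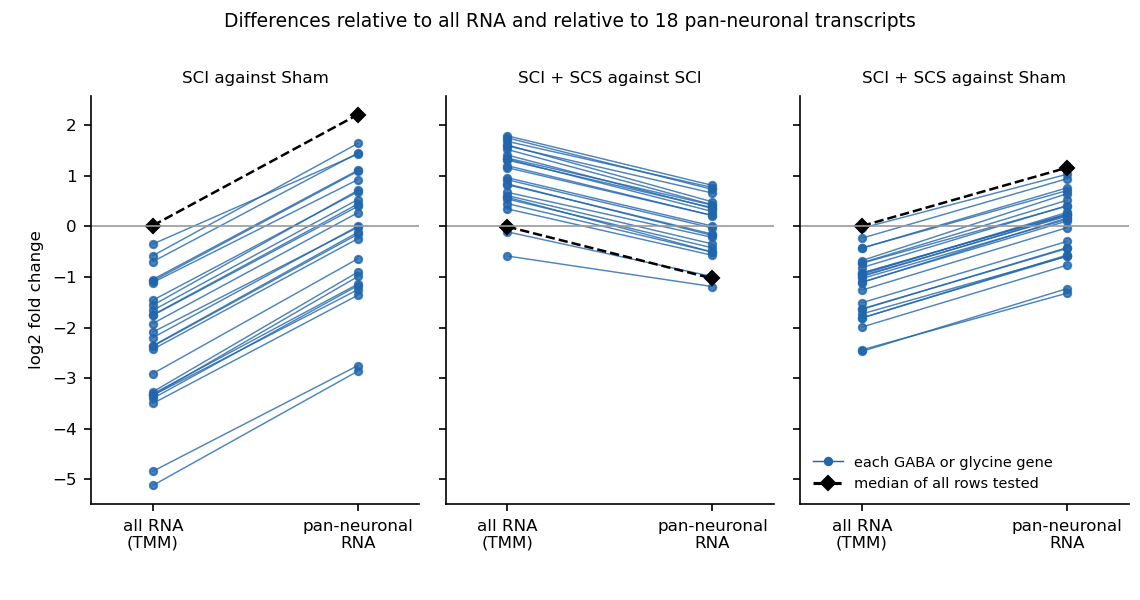
Log2 fold change of each gene tested under both scalings (blue lines) when libraries were scaled by all RNA (TMM) and by the summed counts of 18 pan-neuronal transcripts, in the 3 comparisons, with the median of all rows tested as black diamonds. In SCI against Sham the blue points lie between -5.12 and -0.35 under the first scaling and on both sides of 0 under the second, and their median goes from 1.06 to 0.11 in SCI + SCS against SCI and from -1.01 to 0.18 in SCI + SCS against Sham.

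Genes of the same pathway outside the list were counted in the same fit. Of 17 further scaffold and assembly genes of the inhibitory synapse, 7 were called lower and 1 higher, beside 13.6% and 13.4% of all rows. The largest fitted falls were those of Insyn2b (-3.14, SE 0.76), Mdga2 (-2.83, SE 0.33) and Slitrk3 (-2.83, SE 0.47), all proteins of the inhibitory postsynapse or its adhesion. Insyn2b had 139, 115 and 47 counts in Sham and 7, 21 and 5 in SCI. It passed the count filter through Sham, so its fitted difference is no measure of size. Gabarap, a protein of receptor trafficking and autophagy, was the gene that rose (1.07, SE 0.12, adjusted p = 0.00156 by edgeR), taken from the larger of its 2 rows in the table. Of 7 partners of the GABAB receptor, 3 were called lower, again beside 13.6% of all rows. Among the 3 was Kcnj3, a potassium channel that GABAB receptors open (-3.00, SE 0.38, adjusted p = 0.00214 by edgeR).

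Genes linked to inhibitory interneurons other than those of the synapse, Sst and Calb1 among them, were lower in SCI as well. Not all genes of this list are limited to inhibitory neurons. Of 16 tested, 10 were called lower and none higher, with a median of -1.197, beside 13.6% of all rows called lower and 13.4% called higher. Nos1 fell by 2.71 (SE 0.69), Pax2 by 2.45 (SE 0.50) and Lhx5 by 2.02 (SE 0.48), the last 2 being transcription factors of dorsal inhibitory neurons. The Sham level of Nos1 was uneven (0.817, 4.03 and 1.27 CPM), with Sham replicate 2 far above the others. Its SCI libraries held 0.305, 0.440 and 0.202 CPM. Tfap2b had 27, 42 and 38 counts in Sham and 5, 0 and 0 in SCI and passed the count filter through Sham, so its fitted difference (-4.24, SE 0.98) is no measure of size. In SCI + SCS against SCI 11 of 15 were higher at an unadjusted p under 0.05 and none lower, beside 13.3% and 10.9% of all rows. None of the 15 passed the adjusted test. In SCI + SCS against Sham none of the 16 was called, beside 5.44% of all rows called lower and 6.28% called higher.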

How the data were processed

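RNA-seq libraries were made from oligo(dT)-selected RNA of whole T9-T11 tissue, 3 rats a group. Reads were trimmed with fastp 0.23.2 and aligned with HISAT2 2.2.1 to mRatBN7.2, per the submitters' processing notes; the counting program, its strand setting and the annotation release were not given in the sources used here. The authors deposited raw counts per gene and, in a separate table, FPKM values that they computed per gene and library. Groups were taken from the sample labels, and no column belonged to another sample.

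The counts were tested as deposited with edgeR 4.0.16 (R 4.3.3; TMM scaling, filterByExpr, quasi-likelihood F test, the 6 libraries of the groups compared, no covariates), with the Benjamini-Hochberg adjustment over all rows tested. SE is the log2 fold change divided by the square root of F. Genes past |log2 fold change| 1 and adjusted p 0.05, the thresholds the study used, were called. DESeq2 1.42.0 and limma 3.58.1 on log2(FPKM + 1) and log2(FPKM + 0.1) were alternatives, as were other scalings, count filters, all 9 libraries in one fit, a replicate block and leaving out each library. The scripts were tested on simulated counts. The replicates were separate samples that differed far beyond sampling noise. With 3 libraries a group, p-values carry few degrees of freedom, and floors of 3 counts cover counting error only. 494 identifiers were on more than 1 row. None of the 27 genes was among them; for Gabarap and 3 cell type markers whose symbols were repeated, the row with the highest total was used.

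Of the 28 listed genes, the 27 in the table were described. Of each other gene list, at most 4 genes with the largest change among those past the adjusted threshold in SCI against Sham were named, and the tested receptor subunit genes, some of which are not reported here. The members and lists were chosen with earlier results of these data known.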

Additional observations from a re-analysis of the deposited data

How the results depend on the processing

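In SCI against Sham the number of called genes (22) and of genes with an adjusted p under 0.05 (23) kept within 1.5 times under 10 of the 12 planned and added settings, leave-one-out aside, and leaving out 1 library gave 19 to 24 and 22 to 25. It was 5 and 5 with pan-neuronal counts as library size (2 lower and 3 higher, where all 22 and 23 were lower), and 7 and 7 without both SCI libraries rich in muscle transcripts, an alternative chosen after seeing the data in which the lone SCI library is assumed to vary like the Sham libraries. In SCI + SCS against SCI both counts were 0 except with DESeq2 (10 and 16) and when 1 library was left out (0 to 2 each). In SCI + SCS against Sham the counts of 9 and 16 became 14 and 22 with DESeq2, 5 and 15 with log2(FPKM + 1), 0 and 1 with pan-neuronal counts as library size (the 1 being Gphn, which was higher), 0 and 1 with the replicate block, and 2 to 18 and 5 to 21 when 1 library was left out. The cause of these differences was not tested.

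Relative to pan-neuronal counts the log2 fold change changed sign, in SCI against Sham, for Gabra5 0.271, Gabrb1 1.09, Gabrd 0.684, Gabre 1.64, Gabbr1 1.11, Gabbr2 0.0045, Glrb 0.531, Gad1 0.443, Slc6a9 0.925, Gphn 1.45, Abat 0.712, Aldh5a1 0.397, Pvalb 1.43. In SCI + SCS against SCI it did so for Gabrb1 -0.572, Gabbr1 -0.348, Glra2 -0.18, Glrb -0.425, Gad1 -0.0318, Slc6a9 -0.218, Gphn -0.511, Abat -0.509, Aldh5a1 -0.154, and in SCI + SCS against Sham for Gabra2 0.401, Gabra4 0.166, Gabra5 0.276, Gabrb1 0.516, Gabrg1 0.139, Gabrd 1.03, Gabre 0.647, Gabbr1 0.761, Gabbr2 0.219, Glrb 0.106, Gad1 0.411, Slc6a9 0.707, Gphn 0.942, Abat 0.203, Aldh5a1 0.243, Pvalb 0.238. The cause was not tested.

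Pvalb changed sign in SCI + SCS against SCI with the replicate block (0.0754), with log2(FPKM + 1) (0.00416), with log2(FPKM + 0.1) (0.0226) and without both SCI libraries rich in muscle transcripts (1.15). When 1 library was left out, the ranges that crossed 0 were -1.83 to 0.0794 (SCI against Sham) and -1.03 to 0.883 (SCI + SCS against SCI) for Pvalb, -0.102 to 0.651 for Gabrb1 and -0.312 to 0.0129 for Gabre in SCI + SCS against SCI, and -0.271 to 0.103 for Gabrd in SCI + SCS against Sham.

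Libraries with the same number came from different rats. Their deviations from the group means correlated at 0.243, -0.0555 and 0.2 in SCI against Sham, at -0.165, 0.00198 and -0.205 in SCI + SCS against SCI and at -0.329, 0.0221 and -0.314 in SCI + SCS against Sham, so the numbers do not pair the samples. With the replicate block the called genes were 22, 0 and 0 in these comparisons. Depth limits what can be said of Gabrb2, Glra3, Gabrg3 and Gabrq, which had 0 counts in some libraries.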

Other observations

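Some genes of the GABA pathway outside the synapse list stood higher in SCI than in Sham. Of 7 other receptor subunit genes tested, 3 were called lower, beside 13.6% of all rows. Another 3 were called higher, beside 13.4% of all rows. These were Gabrr2, a rho subunit, by 3.84 on the log2 scale (SE 0.42, adjusted p = 0.00159 by edgeR), Gabrp, the pi subunit of tissues outside the brain, by 3.36 (SE 0.58, adjusted p = 0.00471) and Gabrr3, another rho subunit, by 1.49 (SE 0.41, adjusted p = 0.0241 by edgeR), while Gabrr1 (1.19, SE 0.61, adjusted p = 0.146) did not pass. Gabrr2 (4, 14 and 8 counts in Sham) and Gabrp (2, 6 and 10 counts) passed the count filter through the SCI libraries, so a difference was built into their being tested. Gabrr3 lay near the filter in Sham (15, 10 and 15 counts) and likewise passed it through the SCI libraries (42, 36 and 30 counts). Gabrr2 had 0.0629, 0.159 and 0.0915 CPM in Sham, 1.40, 1.80 and 1.49 CPM in SCI and 0.842, 0.468 and 0.752 CPM in SCI + SCS, with no overlap of any groups. Compared with SCI, SCI + SCS stood lower by 1.17 for Gabrr2 (adjusted p = 0.099 by edgeR) and by 2.12 for Gabrp (adjusted p = 0.219), and in SCI + SCS against Sham Gabrr2 was called higher (2.68, SE 0.47, adjusted p = 0.0106 by edgeR).

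Of 17 other transport and metabolism genes tested, 1 was called lower and 3 higher in SCI against Sham, beside 13.6% and 13.4% of all rows. Gls2, a glutaminase that supplies glutamate, fell by 1.94 (SE 0.28, adjusted p = 0.00282 by edgeR). Slc6a12, the betaine and GABA transporter BGT-1, went from 0.770, 2.78 and 4.70 CPM in Sham to 12.2, 13.7 and 16.3 CPM in SCI (2.33, SE 0.58, adjusted p = 0.0166 by edgeR) and stood at 7.67, 6.95 and 5.16 CPM in SCI + SCS. Slc6a13, the GABA transporter GAT-2 known from the meninges, rose by 2.203 (SE 0.74, adjusted p = 0.0447) and Shmt1, which interconverts serine and glycine, by 1.17 (SE 0.27, adjusted p = 0.0121 by edgeR). The summed level of 8 fibroblast transcripts was 462 to 2118 CPM in Sham, 3745 to 5823 CPM in SCI and 2324 to 3923 CPM in SCI + SCS, and its part in these values was not tested.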
